A study of Saccharomyces cerevisiae with 14 samples.

Results

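The comparison described here is that of lager yeast sampled 102 h after pitching with the same yeast sampled 80 h after pitching, the last interval of a full-scale brewery fermentation followed on arrays. It rests on 6 arrays, 3 of each time, out of 14 in the study. The other arrays were of 8 h (3), 30 h (2) and 60 h (3). All samples were of strain CB11, a production lager strain, and came from a single cylindroconical vessel of 3275 hL. The vessel held wort of 17 degrees Plato made from 85% malt and 15% sugar adjunct, oxygenated in line to 25 mg of dissolved oxygen per litre and supplied with 0.2 mg of zinc sulphate per litre. The yeast had been carried over from earlier fermentations, so both groups share strain, wort, vessel and pitching history and differ, as far as the labels say, in the time of sampling. Cells were drawn at the side of the vessel, 1 m above the cone. The labels describe triplicate samples of 1 vessel, so the p-values rest on the spread among those samples alone. That spread may be technical and is not one between fermentations. In such bulk RNA, a change in the kinds of cells sampled and a change of RNA per cell cannot be told apart.

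Pitching is the addition of yeast to wort. As background, a lager fermentation starts with cells that take up oxygen and sugars and divide a few times, and it ends with cells that have stopped dividing in beer that is poor in fermentable sugar and rich in ethanol. Glucose and maltose repress the genes for the use of other carbon sources, and cells that leave growth turn down the genes of ribosome formation and turn up those of storage, stress defence and the vacuole. Lager yeasts are hybrids of S. cerevisiae and another Saccharomyces species. The array was designed on the S. cerevisiae genome (with a second set of probe sets for a distant yeast), and transcripts of both parental gene copies can bind to an S. cerevisiae probe set.

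All 6 arrays had good signal at the 5′ end of control transcripts, with a mean log2 ratio of 5′ to 3′ signal of -0.454, -0.551 and -0.692 at 80 h and -0.364, -0.440 and -0.479 at 102 h. Arrays of the same time correlated at 0.9855 to 0.9928, and arrays of different times at 0.9541 to 0.9673, over log2 signals. The organism was borne out by its abundant transcripts. Over the 6 arrays the signal of TDH3, which encodes the main glyceraldehyde-3-phosphate dehydrogenase, lay between 9586 and 10293, and that of ADH1, the fermentative alcohol dehydrogenase, between 4772 and 4922, against a background threshold of 22.6. The dim end of the arrays differed with time. Probe sets of the other organism had deposited medians of 2.98 to 4.20 at 80 h and of 6.70 to 7.00 at 102 h, and 4.01% to 5.15% of them stood above background at 102 h against 2.06% to 2.98% at 80 h. Upper signals moved the other way, with deposited 75th percentiles of 356 to 440 at 80 h and 303 to 336 at 102 h. The part of these differences in the results was not tested.

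Between 80 h and 102 h, genes of ribosome formation, chaperones, sulphur amino acid synthesis and cell wall mannoproteins rose more often than genes at large, and genes of zinc supply, the vacuole and 2-carbon metabolism fell more often, in lists described below. Those directions are relative to all transcripts. On the authors' scale ribosome formation and sulphur amino acid synthesis had more falls than rises, as had all tested probe sets. Of 5304 tested S. cerevisiae probe sets, 2591 (48.8%) passed the fit at an adjusted p under 0.05 (limma with Benjamini-Hochberg adjustment), 1202 (22.7%) higher at 102 h and 1389 (26.2%) lower. These 2 shares are the background against which each gene list below is read. The changes were small, with a median absolute log2 change of 0.46 among those that passed. Only 78 probe sets (1.47%) rose and 113 (2.13%) fell by 2-fold or more. Of those 113, 31 were below background on every 102 h array, and 1 of the 78 was below it on every 80 h array. All 3 arrays of 102 h lay above all 3 of 80 h for 1405 probe sets (26.5%) and below them for 1621 (30.6%). The split depended on the scale. On the authors' own scale, where the median of all tested probe sets was -0.307, 396 were higher and 2436 lower of 5289 tested. Centred on the S. cerevisiae median, 1457 were higher and 1085 lower of 5293. List counts given below on either of these scales are to be read against these totals. Changes are therefore given after quantile normalization, in which the median of all tested probe sets was -0.038, and lists are also given relative to that median. A fit to all 14 arrays, which include 3 of low 5′ signal and share 1 estimate of the spread, called 406 higher and 446 lower, and 99 of the 257 named genes that passed here lost their call in it.

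**Figure D1:**
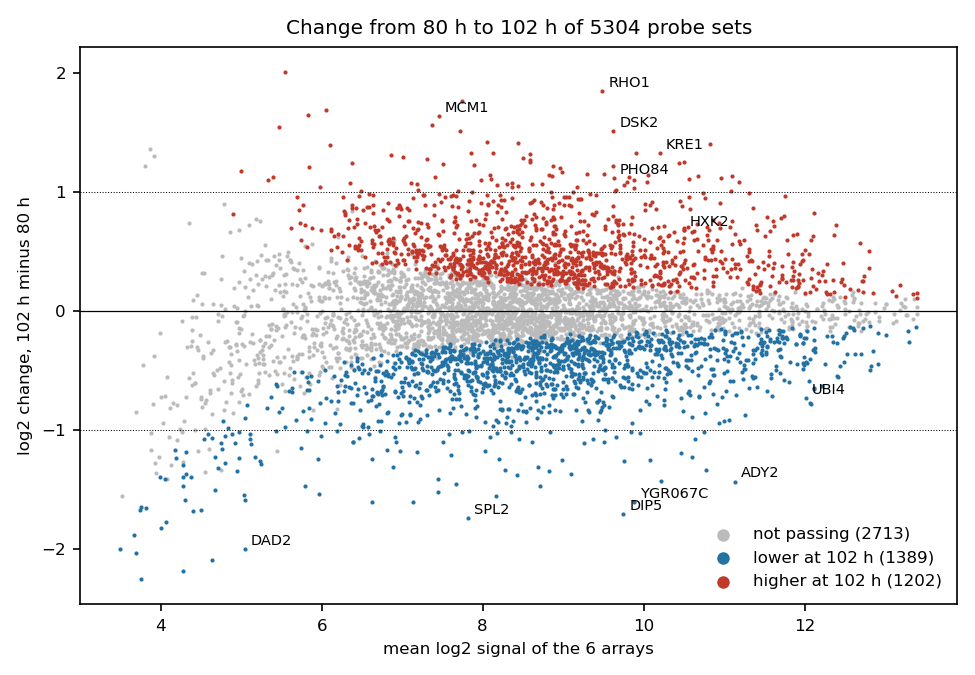
Log2 change from 80 h to 102 h of each tested S. cerevisiae probe set (vertical axis) against its mean log2 signal over the 6 arrays (horizontal axis), coloured by call, with dotted lines at 2-fold. Of 5304 points, 1202 are higher and 1389 lower, and 78 of the rises and 113 of the falls reach the 2-fold lines.

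Among transcripts well above background, the largest rise was that of RHO1, which encodes the small GTPase that activates β-glucan synthase and the Pkc1 kinase of the cell wall. Its normalized signal was 538, 424 and 237 at 80 h and 1425, 1312 and 1344 at 102 h (log2 change 1.85 ± 0.21, adjusted p = 2.8e-05; changes and rises here and below are on the log2 scale, ± SE, with 3 arrays a time). The 102 h arrays were close together and all above the 80 h arrays, which themselves spread more than 2-fold. MCM1, whose product is a transcription factor of cell cycle, mating and arginine genes, gave 102, 107 and 89.6 at 80 h and 322, 261 and 349.8 at 102 h (log2 change 1.64 ± 0.13, adjusted p = 2.2e-06). DSK2, which encodes a shuttle that carries ubiquitinated proteins to the proteasome, gave 474, 411 and 517 at 80 h and 1213, 1426 and 1354 at 102 h (log2 change 1.51 ± 0.095, adjusted p = 6.6e-07). Neither gene's groups overlapped, and the gap between times exceeded the spread within either. KRE1, for a cell wall glycoprotein that takes part in β-glucan assembly, gave 791, 696 and 743 at 80 h and 1949, 1795 and 1844 at 102 h (log2 change 1.33 ± 0.07, adjusted p = 3.6e-07). CYC3, for the haem lyase that attaches haem to cytochrome c, gave 604, 606 and 609 at 80 h and 1492, 1403 and 1673 at 102 h (log2 change 1.33 ± 0.076, adjusted p = 3.9e-07). The 80 h arrays of CYC3 differed by less than 1% while its 102 h arrays were all over 2-fold higher. PIN3, whose product binds the actin assembly factor Las17, gave 161, 162 and 162 at 80 h and 461, 390.2 and 453 at 102 h (log2 change 1.42 ± 0.10, adjusted p = 8.9e-07), again with tight 80 h arrays.

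The other genes among the 16 largest rises were dimmer or less well characterised. WHI5, the repressor of the transcription that starts the cell cycle, rose from a mean of 42.4 to 112, and MRP20, a protein of the large mitochondrial ribosomal subunit, from 216 to 566. WWM1, whose product binds the yeast metacaspase, rose by a log2 change of 1.56, and AUA1, which overlaps it in the gene table, by 1.55. Whether the 2 probe sets share signal was not tested. The flocculin-like open reading frame YHR213W gave 187, 109 and 77.9 at 80 h and 381, 391 and 416 at 102 h, with an 80 h group spread of more than 2-fold that still lay wholly below the 102 h group. The subtelomeric frames YLL066W-B and YEL076C-A rose by 2.00 and 1.51. The probe set of YEL076C-A is marked as shared with related sequences. BSC1, INA1 and YBR071W rose by 1.69, 1.65 and 1.33.

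**Figure D2:**
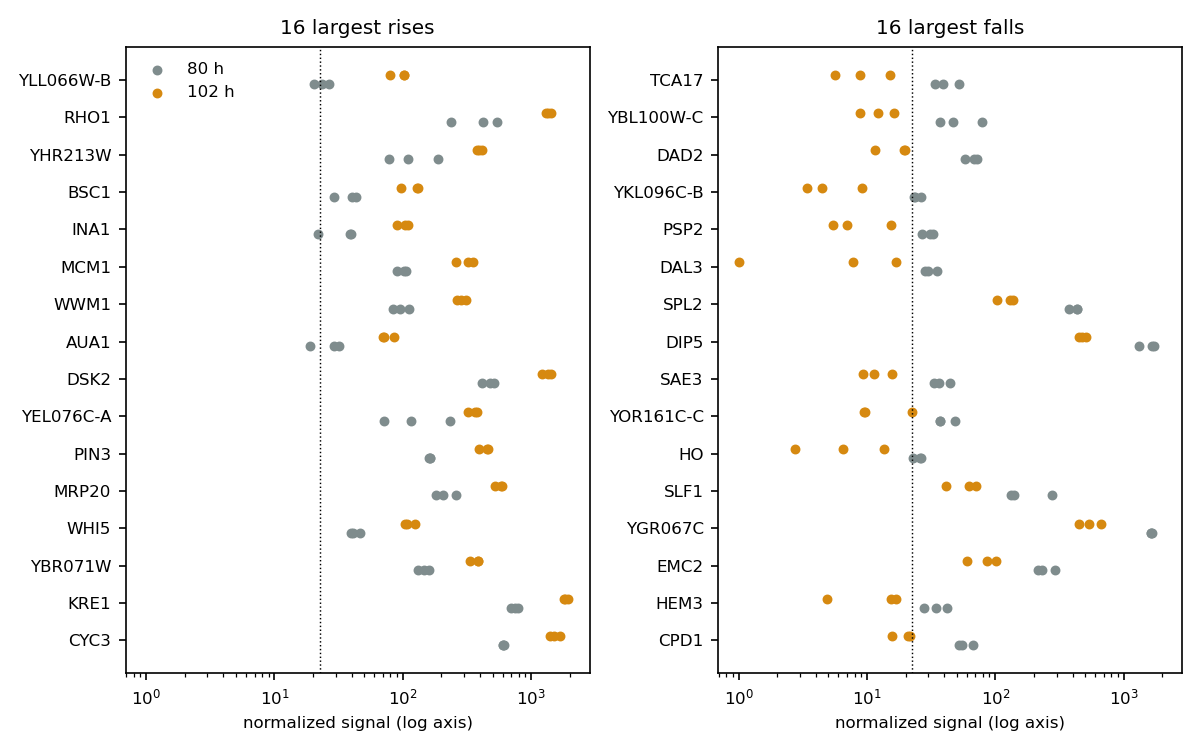
Normalized signal (log axis) on each of the 3 arrays of 80 h (grey) and of 102 h (orange) for the 16 largest rises and the 16 largest falls that passed. The dotted line is the background threshold of 22.6. No gene's groups overlap, and 11 of the 16 falls, but no rise, have all arrays of 1 time below the line.

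The largest falls among transcripts measured at both times were of genes with differing roles. SPL2, which encodes an inhibitor of low-affinity phosphate uptake, gave 435, 372 and 432 at 80 h and 138, 131 and 104 at 102 h (log2 change -1.74 ± 0.12, adjusted p = 1.0e-06). DIP5, the permease for glutamate and aspartate, gave 1711, 1675 and 1308 at 80 h and 508, 477 and 446 at 102 h (log2 change -1.70 ± 0.10, adjusted p = 5.0e-07). For both genes every 102 h array read under 40% of any 80 h array. YGR067C, for a zinc finger protein of unknown role, gave 1640.4, 1640.4 and 1653 at 80 h and 662, 534 and 446 at 102 h (log2 change -1.61 ± 0.11, adjusted p = 1.0e-06), and its 80 h arrays agreed closely. SLF1, for an RNA-binding protein linked to copper detoxification, gave 139, 277 and 133 at 80 h and 70.3, 62.3 and 41.5 at 102 h (log2 change -1.61 ± 0.27, adjusted p = 4.4e-04), with 80 h replicate 2 far above the other arrays of its time. EMC2, a subunit of the membrane protein insertion complex of the endoplasmic reticulum, gave 232, 216 and 291 at 80 h and 101, 59.8 and 86.7 at 102 h (log2 change -1.60 ± 0.19, adjusted p = 2.9e-05).

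The other 11 of the 16 largest falls ended below background on every 102 h array, so only a lower limit of their change can be given. DAD2, for a subunit of the complex that couples kinetochores to microtubules, gave 58.2, 68.0 and 72.6 at 80 h and 11.6, 19.9 and 19.4 at 102 h, a level at least 2.92-fold lower (adjusted p = 1.9e-04). CPD1, for a phosphodiesterase of cyclic nucleotides, was at least 2.54-fold lower and TCA17, for a subunit of a vesicle tethering complex, at least 1.82-fold lower. The limits for the small frames YBL100W-C, YOR161C-C and YKL096C-B were 2.27, 1.79 and 1.08 times. Those of SAE3, a meiotic recombination gene, of HEM3 (haem synthesis), DAL3 (allantoin breakdown), PSP2 (an RNA-binding protein) and HO (the mating type endonuclease) were 1.67, 1.51, 1.37, 1.33 and 1.10 times. Such limits close to 1 carry little, and some of these calls rested on settings. Those of DAL3, HO, PSP2 and YKL096C-B were lost with the floor raised to the background threshold. Those of YOR161C-C, HEM3 and DAL3 were lost when centred on the S. cerevisiae median (-0.87, adjusted p = 0.078, -0.76, adjusted p = 0.21 and -1.05, adjusted p = 0.097). HO, PSP2 and YKL096C-B were too dim to be tested when centred, and HO and YKL096C-B also on the authors' scale. DAL3 and HEM3 were lost without 80 h replicate 3 (-1.65, adjusted p = 0.052 and -1.40, adjusted p = 0.074), YKL096C-B without 80 h replicate 2 (-1.80, adjusted p = 0.051), and HO without 80 h replicate 1, 2 or 3 (-1.62, adjusted p = 0.065, -1.69, adjusted p = 0.056 and -1.60, adjusted p = 0.075).

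Genes of ribosome formation made up the largest group that rose. Of 154 tested genes of the list, 77 rose and 9 fell, against 22.7% and 26.2% of all tested probe sets. On the authors' scale 16 were higher and 23 lower, where 396 of all 5289 tested probe sets were higher and 2436 lower. The list's median log2 change was 0.25, and its median signal on each array was 379, 375 and 369 at 80 h and 433, 443 and 468 at 102 h, so each 102 h array stood above each 80 h array. NSR1, for the nucleolin that binds pre-ribosomal RNA, gave 768, 723 and 684 at 80 h and 1446, 1571 and 1579 at 102 h (log2 change 1.08 ± 0.071, adjusted p = 7.3e-07). CBF5, the pseudouridine synthase of ribosomal RNA, rose from a mean of 295 to 619.7 (1.07 ± 0.10, adjusted p = 4.9e-06) and HAS1, an RNA helicase of both subunits' assembly, from 395 to 787 (1.00 ± 0.087, adjusted p = 3.5e-06). SNU13 and NOP1, proteins of the small nucleolar particles that guide rRNA modification, rose by 0.99 and 0.88. Over the 5 sampling times (8, 30, 60, 80 and 102 h, here and below), NSR1 averaged 339.5, 359, 479.6, 703 and 1497, the highest at 102 h. On the authors' scale, on which most genes that passed were lower, the list's median relative to all tested stayed positive (0.22 there, 0.29 here).

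Cytosolic ribosomal protein genes rose as well. Of 128 tested genes of the list, 56 rose and 14 fell, with a median of 0.14. The falls numbered 8, 8 and 9 with 80 h replicate 2, 102 h replicate 1 or 102 h replicate 2 left out. RPP0, for the stalk protein of the large subunit, gave 1634, 1597 and 1559 at 80 h and 3281, 3304 and 3565 at 102 h (log2 change 1.08 ± 0.058, adjusted p = 3.6e-07). RPS7B, RPP2A, RPL29 and RPS11A rose by 1.15, 1.11, 1.01 and 0.95. For these genes the 102 h level was below that at 8 h. Over the 5 times RPP0 averaged 5391, 4137, 1337, 1560.4 and 3383, and RPS7B 1949.8, 1444, 336, 403 and 910.0. The 60 h means hold 2 arrays and the 8 h means 1 array of low 5′ signal, and the course has no test here. Many ribosomal proteins have near-identical duplicate genes, whose probe sets may share signal. On the authors' scale this list held 30 higher and 27 lower, so the rise is one relative to other transcripts (0.26 against the median of all tested).

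Mitochondrial ribosomal proteins, which build the separate ribosome that translates mitochondrial DNA, moved in the same direction here. Of 77 tested genes of the list, 39 rose and 9 fell (but 12 higher and 17 lower on the authors' scale), with a median of 0.24. IMG1 gave 743, 693 and 711 at 80 h and 1581, 1606 and 1550.0 at 102 h (log2 change 1.14 ± 0.064, adjusted p = 3.6e-07), and these 6 values left a clear gap between the times. On the authors' scale the list's median was 0.21 relative to all tested. The falls numbered 5 without 80 h replicate 2 and 4 without 102 h replicate 3. MRPL19, IMG2 and MRPL4 rose by 1.10, 0.96 and 0.95, beside MRP20 above. Of translation factors and tRNA synthetases, 19 of 51 rose and 4 fell (9 higher and 14 lower on the authors' scale). They included SUI2, the α subunit of initiation factor eIF2 (0.93 ± 0.11, adjusted p = 3.5e-05), RPG1, a subunit of eIF3 (0.77 ± 0.075, adjusted p = 7.7e-06), EFB1 and TEF4, which serve elongation factor 1 (0.72 and 0.59), and FRS2, a subunit of phenylalanyl-tRNA synthetase (0.81). Subunits of RNA polymerases I and III and their factors were nearer to background, with 10 of 37 higher and 3 lower (5 lower without 80 h replicate 1, and 2 higher and 13 lower on the authors' scale, 11 and 3 when centred). RPA14 of polymerase I rose (1.14 ± 0.085, adjusted p = 1.3e-06), as did the shared subunit RPB8 (0.63), while TFC4, of the polymerase III factor TFIIIC, fell (-0.68). RPA43 and RPC31 passed with 0.71 and 0.55 but not on the authors' scale (0.40, adjusted p = 0.061 and 0.21, adjusted p = 0.29).

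**Figure D3:**
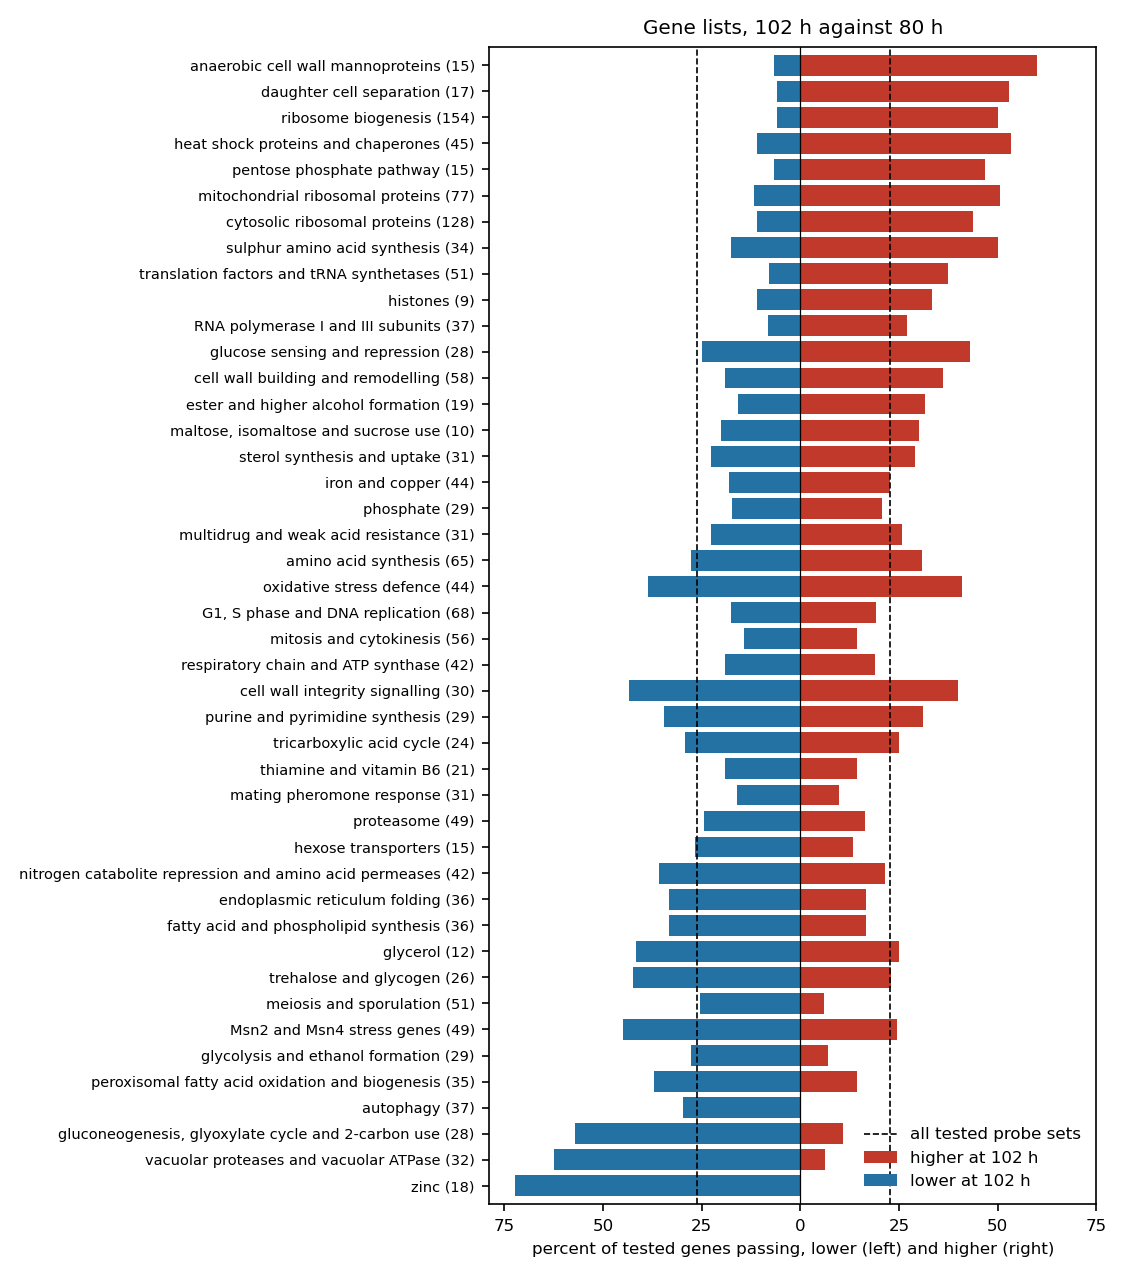
Share of the tested genes of each list that passed as higher (right, red) or lower (left, blue) at 102 h, in percent, with the number tested in brackets. Dashed lines mark the shares of all tested probe sets, 22.7% higher and 26.2% lower. Mannoproteins, chaperones and daughter cell separation reach furthest on the right, and zinc, vacuolar and 2-carbon genes on the left.

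Chaperones, which fold new or damaged proteins, rose as well. Of 45 tested genes of the list, 24 rose and 5 fell, with a median of 0.26 (11 higher and 7 lower on the authors' scale). SSA1, a cytosolic Hsp70, gave 1471, 1420.3 and 1451 at 80 h and 2564, 2849 and 2746 at 102 h (log2 change 0.91 ± 0.06, adjusted p = 7.3e-07), and each 102 h array was over 1.5 times any 80 h array. Its Hsp40 partners SIS1 and YDJ1 rose by 0.94 and 0.90, the ribosome-bound ZUO1 by 0.89, and the Hsp90 co-chaperone CNS1 by 0.88. SSA1 had been at its lowest at 80 h. Over the 5 times it averaged 2841, 3128, 1948, 1413 and 2666. The stress-induced chaperones did not share one direction. HSP104, the disaggregase, rose by 0.35, SSA4 did not pass (-0.019 ± 0.14, adjusted p = 0.92), and HSP26 rose by 0.17 (adjusted p = 0.027), a call lost with 80 h replicate 1 left out (0.11, adjusted p = 0.099), with 102 h replicate 1 left out (0.16, adjusted p = 0.076) or with 102 h replicate 2 left out (0.14, adjusted p = 0.11). The call of HSP104 was lost on the authors' scale (0.16, adjusted p = 0.2).

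Genes that answer to the general stress factors Msn2 and Msn4 changed in both directions, and which was the more frequent depended on the scale. Of 49 tested genes of the list, 12 rose and 22 fell, against 6 higher and 24 lower on the authors' scale, 13 and 9 when centred, and the list median did not stand apart from that of all tested (-0.0018 here and 0.053 on the authors' scale). UBI4, the polyubiquitin gene, gave 5548, 5548 and 4900.4 at 80 h and 3370.2, 3232 and 3038 at 102 h (log2 change -0.73 ± 0.063, adjusted p = 3.4e-06), with all 102 h arrays below all 80 h arrays. MSN4 itself fell from 947 to 506 (-0.92 ± 0.11, adjusted p = 3.2e-05), ALD3, an aldehyde dehydrogenase, from 395 to 192 (-1.06 ± 0.14, adjusted p = 9.1e-05), and RTN2, which shapes the endoplasmic reticulum, from 2727 to 1425 (-0.94 ± 0.07, adjusted p = 1.3e-06). CTT1, the cytosolic catalase, and HSP12, a membrane-protecting protein, fell by small amounts from high levels (-0.36 and -0.26). Centred on the S. cerevisiae median neither passed (-0.043, adjusted p = 0.81 and 0.10, adjusted p = 0.64), and HSP12 changed its sign. SOL4, of the pentose phosphate pathway, and HSP30, a regulator of the plasma membrane proton pump, rose by 0.96 and 0.96. Oxidative stress defence was divided, with 18 of 44 tested genes higher and 17 lower (5 higher and 22 lower on the authors' scale, 20 and 11 when centred). SRX1, the sulphiredoxin, rose (1.28 ± 0.12, adjusted p = 6.4e-06), as did OYE2 (0.73) and the dim GRX8 (0.72), while the thioredoxin TRX1 fell (-0.67 ± 0.065, adjusted p = 7.2e-06) together with the glutaredoxin GRX7 (-0.66).

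In carbon metabolism the largest group that fell was that of gluconeogenesis, the glyoxylate cycle and 2-carbon use, the genes with which yeast lives on ethanol and acetate. Of 28 tested genes of the list, 3 rose and 16 fell, with a median of -0.25 (1 higher and 20 lower on the authors' scale, 5 and 11 when centred). ADY2, for the acetate permease, gave 3572, 3555 and 3931 at 80 h and 1671, 1371 and 1109 at 102 h (log2 change -1.43 ± 0.11, adjusted p = 2.2e-06), and its highest 102 h array was far below its lowest 80 h array. IDP3, the peroxisomal isocitrate dehydrogenase, fell from 636 to 357 (-0.83 ± 0.083, adjusted p = 8.9e-06), and SFC1, a mitochondrial succinate and fumarate carrier, from 109.5 to 64.2 (-0.78 ± 0.15, adjusted p = 0.0014). ICL1 and MLS1, the 2 enzymes particular to the glyoxylate cycle, changed by -0.73 and -0.36, and ACS1, an acetyl-CoA synthetase, by -0.41. The list was not uniform. PCK1, which makes phosphoenolpyruvate for gluconeogenesis, rose, with 421, 434 and 430.1 at 80 h and 819, 775 and 873 at 102 h (log2 change 0.94 ± 0.076, adjusted p = 2.3e-06). ADH2, the ethanol-consuming dehydrogenase, rose by 0.32, a call lost on the authors' scale (0.10, adjusted p = 0.47), and FBP1 and ALD4 did not pass (0.17 ± 0.068, adjusted p = 0.06 and 0.055 ± 0.047, adjusted p = 0.35). Over the 5 times PCK1 averaged 125, 136, 302, 407 and 798, and ADY2 704, 976, 1809.8, 3711 and 1346.

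The hexokinase isozymes changed in opposite directions. HXK2, the hexokinase of glucose-grown cells that also serves glucose repression, gave 1229.9, 1170.5 and 1043 at 80 h and 1690.3, 1781 and 2036 at 102 h (log2 change 0.68 ± 0.084, adjusted p = 4.7e-05). HXK1, the hexokinase of derepressed cells, gave 6497, 6688 and 6848 at 80 h and 5152, 4726 and 5011 at 102 h (log2 change -0.43 ± 0.05, adjusted p = 3.2e-05). The groups did not overlap for either gene. Centred on the S. cerevisiae median, the call of HXK1 was lost (-0.17, adjusted p = 0.25), and HXK2 passed under both this and the authors' scale (0.80, adjusted p = 3.0e-05 and 0.45, adjusted p = 5.1e-04). EMI2, a glucokinase paralogue, changed by -0.30, and GLK1 did not pass (-0.12 ± 0.059, adjusted p = 0.12). The list of glycolysis and ethanol formation holds these hexokinase genes too. Of 29 tested genes of the list, 2 rose and 8 fell (2 higher and 12 lower on the authors' scale, 6 and 2 when centred). Without 80 h replicate 3 there were 5 rises, and without 102 h replicate 2 there were 5 falls. The most frequent direction thus depended on the scale, and the list median was -0.031, within 0.01 of that of all tested (0.0073) but above it on the authors' scale (0.16). PDC1, the main pyruvate decarboxylase, and ADH1 did not pass (-0.084 ± 0.048, adjusted p = 0.17 and 0.00023 ± 0.046, adjusted p = 0.997). ADH5, a minor alcohol dehydrogenase, changed by -0.52. GPM3, a minor phosphoglycerate mutase homologue, rose by 0.45, a call lost on the authors' scale (0.15, adjusted p = 0.54), when 80 h replicate 2 was left out (0.36, adjusted p = 0.093) and likewise for 102 h replicate 3 (0.41, adjusted p = 0.062).

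Genes that sense glucose and set repression rose more often than the background here. Of 28 tested genes of the list, 12 rose and 7 fell (but 3 higher and 9 lower on the authors' scale), with a median of 0.085. STD1, which acts in signalling by the glucose sensors, gave 70.9, 56.4 and 63.7 at 80 h and 121, 109 and 157 at 102 h (log2 change 1.01 ± 0.17, adjusted p = 5.2e-04). The repressors MIG1 and MIG2 rose by 0.65 and 0.77, and the zinc finger factor USV1 by 0.67, while the dim SIP4, an activator of gluconeogenic genes, read -1.32. The value of MIG2 lay between 0.49 and 1.01 when single arrays were left out, MIG1 was lost on the authors' scale (0.31, adjusted p = 0.091), and SIP4 was lost when centred on the S. cerevisiae median (-0.65, adjusted p = 0.19), when 80 h replicate 2 was left out (-1.11, adjusted p = 0.11), and likewise for 80 h replicate 3 (-1.19, adjusted p = 0.074) and 102 h replicate 1 (-0.99, adjusted p = 0.062).

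Hexose transporter genes differed from one another. Of 15 tested genes of the list, 2 rose and 4 fell (1 higher and 7 lower on the authors' scale, 3 and 2 when centred). HXT2, a transporter of high affinity, had the highest signal of those named, with 5888, 5199.5 and 4644 at 80 h and 3599, 3291 and 3524 at 102 h (log2 change -0.59 ± 0.077, adjusted p = 6.6e-05). Centred on the S. cerevisiae median it did not pass (-0.34, adjusted p = 0.06). HXT17 and HXT11 fell from 498 to 173 and 220.3 to 96.9 (-1.55 and -1.19), and HXT7 rose from 90.7 to 167 (0.87). Probe sets of HXT7, HXT13 and HXT17 are marked as shared with related transporters, and HXT13 (-0.77) was lost without 80 h replicate 2 (-0.56, adjusted p = 0.11) and when centred (-0.55, adjusted p = 0.067). The call of HXT13 was also lost with the mean of its 2 probe sets. HXT3, of low affinity, rose by 0.40, but not on the authors' scale (0.052, adjusted p = 0.8). HXT1, HXT4 and HXT5 did not pass (0.45, 0.21 and -0.053). For maltose, isomaltose and sucrose, 3 of 10 tested genes rose and 2 fell (0 higher and 4 lower on the authors' scale, 4 and 1 when centred, and 1 lower with 80 h replicate 2, 102 h replicate 1 or 102 h replicate 2 left out). The isomaltase gene IMA5 gave 311, 316 and 257 at 80 h and 95.5, 107 and 105 at 102 h (log2 change -1.52 ± 0.12, adjusted p = 1.9e-06), a fall on all 3 arrays. The abundant MAL31 and SUC2, for the maltose permease and invertase, did not pass (-0.14 ± 0.061, adjusted p = 0.082 and 0.11 ± 0.051, adjusted p = 0.083). MAL32, IMA3 and MPH2, all on shared probe sets, rose by 0.16, 0.40 and 0.49, and none of the 3 passed on the authors' scale (0.061, adjusted p = 0.5, 0.072, adjusted p = 0.7 and 0.18, adjusted p = 0.46). MPH2 was also lost without 80 h replicate 2, 80 h replicate 3, 102 h replicate 1 or 102 h replicate 2 (0.51, adjusted p = 0.062, 0.42, adjusted p = 0.078, 0.34, adjusted p = 0.12 and 0.50, adjusted p = 0.057).

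The pentose phosphate pathway, the main source of NADPH in the cytosol, rose in 7 of 15 tested genes and fell in 1 (4 higher and 5 lower on the authors' scale, 7 and 0 when centred, and 2 lower without 102 h replicate 3). SOL2, a homologue of 6-phosphogluconolactonase, gave 917, 789 and 836 at 80 h and 1499, 1581 and 1505 at 102 h (log2 change 0.85 ± 0.072, adjusted p = 3.0e-06), and RPE1, the ribulose-phosphate epimerase, rose from 407 to 746 (0.88 ± 0.10, adjusted p = 1.8e-05). TKL1, the main transketolase, rose by 0.59. The 1 fall was that of NQM1, a transaldolase paralogue (-0.45), which did not pass when centred on the S. cerevisiae median (-0.21, adjusted p = 0.11). Genes of reserve carbohydrates changed in both directions, with 11 of 26 tested genes lower and 6 higher, against 1 higher and 15 lower on the authors' scale, 8 and 7 when centred. GSY2, the main glycogen synthase, gave 3014, 2874 and 2762 at 80 h and 2178, 2104 and 1887 at 102 h (log2 change -0.49 ± 0.066, adjusted p = 9.0e-05). TPS1, which makes trehalose 6-phosphate, changed by -0.44, ATH1, the acid trehalase, by -0.49, and PIG1, a targeting subunit for glycogen synthase phosphatase, by -0.58. GDB1, the glycogen debranching enzyme, rose from the dim level of 29.5 to 63.2 (1.12 ± 0.29, adjusted p = 0.0066), and GLG1, which primes glycogen, by 0.62, a call lost on the authors' scale (0.28, adjusted p = 0.11). In glycerol metabolism 3 of 12 tested genes rose and 5 fell (2 higher and 5 lower on the authors' scale, 4 and 4 when centred, and 2 to 4 higher with single arrays left out). GPP1 and GPD2, of glycerol formation, rose (1.00 ± 0.13, adjusted p = 8.3e-05 and 0.96 ± 0.14, adjusted p = 1.9e-04). GPD1, also of glycerol formation and brighter (1974 at 80 h, 2185 at 102 h), did not pass (0.15 ± 0.061, adjusted p = 0.064). It read -0.028 on the authors' scale and passed when centred (0.32, adjusted p = 0.0043). GUT1, the glycerol kinase of glycerol use, fell from 3153 to 2164 (-0.54 ± 0.056, adjusted p = 1.1e-05), and STL1, the glycerol and proton symporter, changed by -1.10.

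**Figure D4:**
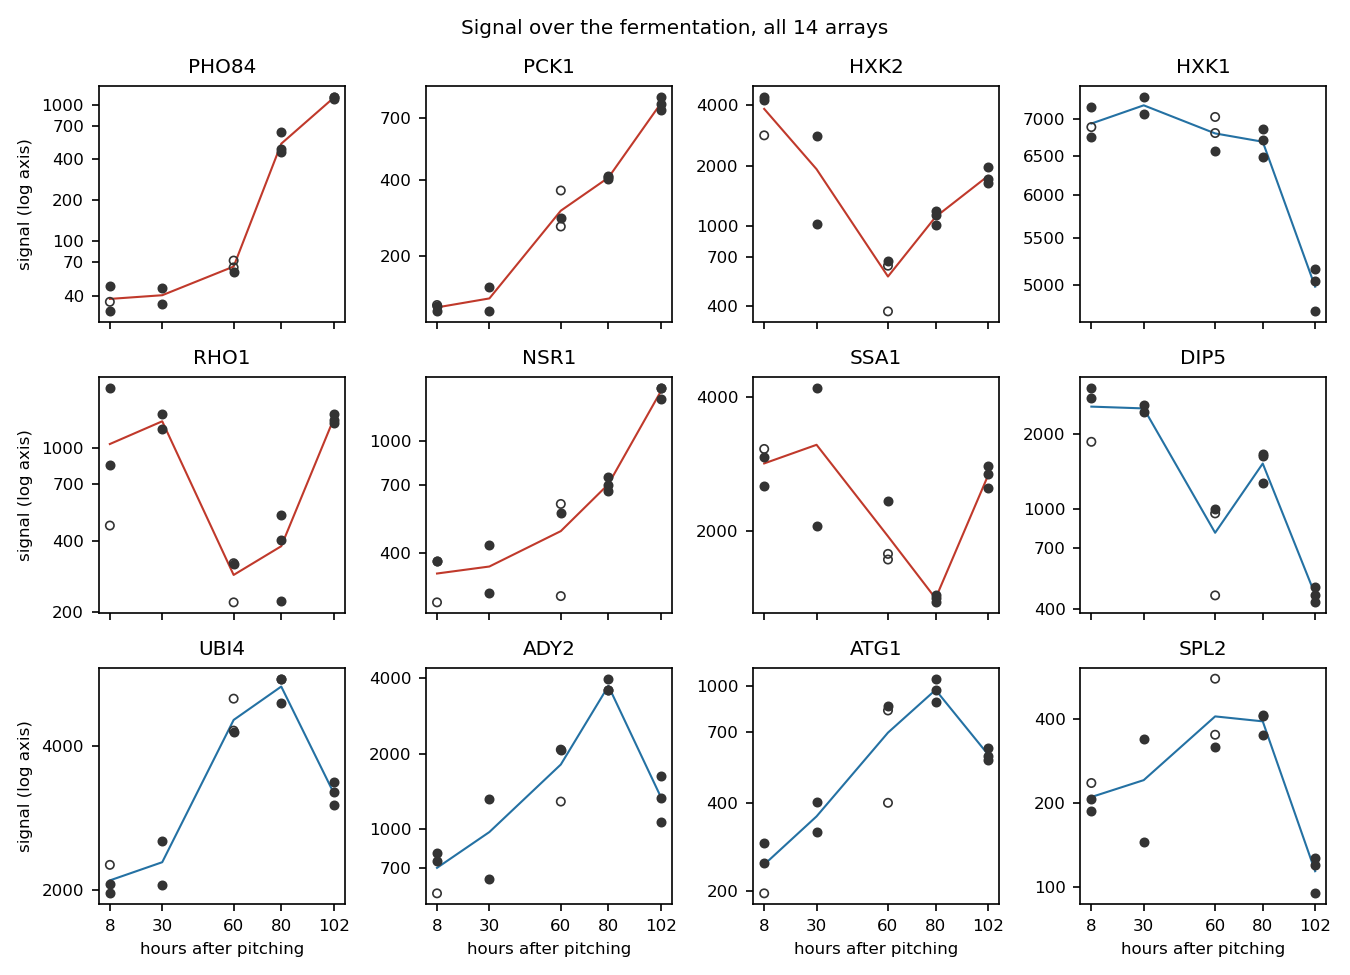
Signal over the 5 sampling times (horizontal axis, hours after pitching) of 12 of the named genes, on log axes that differ between panels. Points are arrays, normalized over all 14, hollow for the 3 arrays of low 5′ signal, and lines join group means, red for genes that rose from 80 h to 102 h and blue for genes that fell. PHO84, PCK1 and NSR1 are highest at 102 h, UBI4, ADY2 and ATG1 fall from a maximum at 80 h, and HXK2, RHO1 and SSA1 return from a low at 60 h or 80 h.

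Placed in the course of the fermentation, the last interval held both continued changes and turns. Of the 1202 probe sets that rose, 50.7% had the highest of their 5 time means at 102 h, against 18.9% of all tested. Of the 1389 that fell, 57.8% had their lowest mean at 102 h (26.6% of all tested), and 31.3% had their highest at 80 h (15.2% of all tested). Because the same 80 h and 102 h arrays chose these probe sets, part of each excess follows from the choice. The 8 h means also hold 1 array and the 60 h means 2 arrays of low 5′ signal, whose part in these shares was not tested.

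Respiratory genes and the tricarboxylic acid cycle were divided. The ATP synthase and the respiratory chain had 8 genes higher and 8 lower of 42 tested, both below the background shares (5 higher and 19 lower on the authors' scale, 15 and 4 when centred). CYC1, the main cytochrome c, gave 1917, 2149.6 and 2407 at 80 h and 3291, 3349.8 and 3693 at 102 h (log2 change 0.68 ± 0.08, adjusted p = 3.2e-05), beside the rise of CYC3 above. COX5B, the hypoxic form of a cytochrome oxidase subunit, gave 3171, 3114 and 3198 at 80 h and 1971, 2102 and 1998 at 102 h (log2 change -0.64 ± 0.054, adjusted p = 3.0e-06), and both genes' groups were separate. INH1, the inhibitor of the ATP synthase, changed by -0.64, NDE2, an external NADH dehydrogenase, by -0.57, and QCR2, of the cytochrome bc1 complex, rose by 0.54. QCR7 did not pass (0.10 ± 0.05, adjusted p = 0.12). Of the cycle's 24 tested genes, 6 rose and 7 fell (4 higher and 10 lower on the authors' scale, 11 and 2 when centred, and 4 lower without 102 h replicate 1 or without 102 h replicate 2). SDH1 of succinate dehydrogenase and KGD1 of the ketoglutarate dehydrogenase rose by 0.65 and 0.60, MAE1, the malic enzyme, by 0.88, and IDP1, the mitochondrial NADP isocitrate dehydrogenase, changed by -0.72. CIT1 and SDH2 did not pass (0.013 ± 0.066, adjusted p = 0.88 and 0.14 ± 0.061, adjusted p = 0.069).

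Cell wall mannoproteins of the DAN, TIR and PAU families, which yeast makes when oxygen is lacking, rose in 9 of 15 tested genes and fell in 1, with a median of 0.57, the highest of the 44 lists. TIR2 gave 701, 672 and 558 at 80 h and 1022, 1074 and 1081 at 102 h (log2 change 0.72 ± 0.088, adjusted p = 4.1e-05), with every 102 h array above every 80 h array. PAU7, PAU24, PAU5 and PAU2 rose by 0.97, 0.75, 0.73 and 0.73. All 4 probe sets are marked as shared and the PAU genes are near-identical, so their values are not independent of one another. DAN1 did not pass (0.0088 ± 0.12, adjusted p = 0.96). On the authors' scale the list held 7 higher and 1 lower, and its median stayed above that of all tested (0.72). Genes of sterol synthesis and uptake were near background, with 9 higher and 7 lower of 31 (2 higher and 10 lower on the authors' scale, 11 and 3 when centred). PDR11, a transporter that takes up sterol without oxygen, gave 492, 467 and 496 at 80 h and 931, 952 and 978 at 102 h (log2 change 0.98 ± 0.071, adjusted p = 1.1e-06), while SUT1, a regulator of sterol uptake, fell from 1362 to 565 (-1.26 ± 0.14, adjusted p = 1.6e-05). ECM22, an activator of sterol synthesis, changed by -0.76, ARE1, which esterifies sterol, rose by 0.55 but not on the authors' scale (0.22, adjusted p = 0.21), and ERG11, the target of azoles, did not pass (-0.036 ± 0.044, adjusted p = 0.52).

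Of fatty acid and phospholipid genes, 12 of 36 fell and 6 rose, against 0 higher and 23 lower on the authors' scale, 8 and 6 when centred. Without 80 h replicate 2, 102 h replicate 1 or 102 h replicate 2 the falls numbered 6, 6 and 7, and without 80 h replicate 3 or 102 h replicate 2 the rises numbered 3. CHO2, which starts the methylation of phosphatidylethanolamine to phosphatidylcholine, gave 1405, 1824 and 1824 at 80 h and 746, 730.3 and 639 at 102 h (log2 change -1.25 ± 0.10, adjusted p = 2.6e-06), with no overlap between the times. GPT2, which acylates glycerol phosphate, fell from 2328 to 1109 (-1.08 ± 0.11, adjusted p = 1.4e-05), PHS1, of fatty acid elongation, fell too (-0.64), while OLE1, the fatty acid desaturase, did not pass (-0.10 ± 0.042, adjusted p = 0.073). ELO3 and LRO1 rose by 0.66 and 0.64 and did not pass on the authors' scale (0.31, adjusted p = 0.09 and 0.29, adjusted p = 0.14). Peroxisomal genes fell in 13 of 35 and rose in 5 (2 higher and 24 lower on the authors' scale, 5 and 11 when centred, and 3 higher without 80 h replicate 2 or without 102 h replicate 2). PEX5, the receptor for peroxisomal proteins, gave 1084, 1176 and 1236 at 80 h and 548, 587 and 540.4 at 102 h (log2 change -1.06 ± 0.075, adjusted p = 1.0e-06). FAA2, PXA2 and PEX32 changed by -1.10, -0.76 and -0.69, and SPS19, for an auxiliary enzyme of the oxidation of unsaturated fatty acids, rose by 0.89.

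Of the nutrient lists, that of zinc fell most often. Yeast controls zinc through the activator Zap1, which raises uptake and release from stores when zinc is short. Of 18 tested genes of the list, 0 rose and 13 fell, with a median of -0.30. At an unadjusted p under 0.05 in the same limma fit, 0 were higher and 13 lower. The list held 0 higher and 16 lower on the authors' scale, 0 and 9 when centred, and 10 to 13 lower with single arrays left out. The median signal of the list on each array was 1097, 1157 and 1025 at 80 h and 879.6, 941 and 880.0 at 102 h. ZPS1, a Zap1-controlled cell surface protein, gave 5219.8, 5847 and 5991 at 80 h and 3393, 3465 and 3070.4 at 102 h (log2 change -0.78 ± 0.066, adjusted p = 3.0e-06), and all 102 h arrays were below all 80 h arrays. ZRT2, the low-affinity transporter, fell from 601 to 382 (-0.65 ± 0.087, adjusted p = 8.2e-05), as did ZRG17, a zinc transporter of the endoplasmic reticulum (-0.56), IZH3 (-0.59) and VEL1 (-0.57). ZRT1, the high-affinity transporter, passed narrowly (-0.14 ± 0.052, adjusted p = 0.038). Centred on the S. cerevisiae median it read 0.15, adjusted p = 0.41, and it was lost without 80 h replicate 1, 80 h replicate 2, 102 h replicate 1 or 102 h replicate 2 (-0.11, adjusted p = 0.11, -0.15, adjusted p = 0.079, -0.11, adjusted p = 0.14 and -0.13, adjusted p = 0.11).

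Phosphate genes did not move together. Of 29 tested genes 6 rose and 5 fell (3 higher and 16 lower on the authors' scale, 7 and 5 when centred, and 3 lower without 80 h replicate 2). PHO84, the high-affinity phosphate permease, gave 477, 499 and 654 at 80 h and 1177, 1189 and 1138 at 102 h (log2 change 1.12 ± 0.10, adjusted p = 6.0e-06), with every 102 h array above every 80 h array. Its averages over the 5 times were 37.8, 40.2, 65.3, 522 and 1133. PHO4, the activator of the phosphate genes, rose from 95.5 to 202 (1.07 ± 0.14, adjusted p = 5.7e-05) and VTC1, of polyphosphate synthesis, from 372 to 608 (0.71 ± 0.11, adjusted p = 2.6e-04), whereas SPL2, given above, fell from 413 to 124. Iron and copper genes were near background, with 10 higher and 8 lower of 44 (5 higher and 20 lower on the authors' scale, 11 and 5 when centred). TIS11, which degrades mRNAs of iron-using proteins when iron is short, fell (-1.31 ± 0.13, adjusted p = 7.9e-06), and FIT3, a cell wall protein of iron retention, rose (1.29 ± 0.15, adjusted p = 2.5e-05). MRS3, a mitochondrial iron carrier, rose by 0.87, and the metallothionein CUP1-1, on a shared probe set, by 0.67. CUP2, its activator, rose by 0.65, but not on the authors' scale (0.32, adjusted p = 0.064). Of thiamine and vitamin B6 genes 3 of 21 rose and 4 fell (1 higher and 8 lower on the authors' scale, 4 and 4 when centred, and 5 higher without 80 h replicate 3). THI13, on a probe set shared with its near-identical copies, gave 896, 893 and 909.7 at 80 h and 2084, 1992 and 2326 at 102 h (log2 change 1.24 ± 0.07, adjusted p = 3.6e-07), while the transporter-like THI73 changed by -0.82, TPN1, the vitamin B6 permease, by -0.59, and the regulator THI2 by -0.47.

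In sulphur metabolism, which turns sulphate into methionine, cysteine and S-adenosylmethionine, 17 of 34 tested genes rose and 6 fell (but 6 higher and 9 lower on the authors' scale), with a median of 0.27. CYS3, which makes cysteine, gave 262, 239 and 247 at 80 h and 559, 583 and 636 at 102 h (log2 change 1.25 ± 0.087, adjusted p = 9.6e-07). SAM1, an S-adenosylmethionine synthetase, gave 523, 480.4 and 466 at 80 h and 955, 1066 and 1258 at 102 h (log2 change 1.15 ± 0.10, adjusted p = 3.2e-06), and in both genes the 102 h arrays were all over 1.8 times the highest 80 h array. MET14, the adenylylsulphate kinase, rose by 0.86, MUP3, a low-affinity methionine permease, by 0.81, and the activator MET32 by 0.70. Synthesis of the other amino acids was divided, with 20 higher and 18 lower of 65 (6 higher and 32 lower on the authors' scale, 21 and 15 when centred, and 11 lower without 80 h replicate 2). ILV6, the regulatory subunit of acetolactate synthase, rose (1.22 ± 0.11, adjusted p = 3.7e-06), as did THR1, the homoserine kinase (1.01 ± 0.087, adjusted p = 3.3e-06), LEU2 (0.77) and LYS20 (0.69), while ARG7 fell (-0.67).

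Of genes under nitrogen catabolite repression and of amino acid permeases, 15 of 42 fell and 9 rose (3 higher and 23 lower on the authors' scale, 11 and 12 when centred). Beside DIP5, AGP2, a plasma membrane regulator of carnitine and polyamine uptake, fell from 454 to 194 (-1.24 ± 0.15, adjusted p = 3.8e-05), and UGA2, of γ-aminobutyrate use, from 1036 to 519 (adjusted p = 2.6e-06). CAR1, the arginase, gave 319, 309 and 313 at 80 h and 798, 678 and 605 at 102 h (log2 change 1.14 ± 0.10, adjusted p = 3.6e-06), a rise on every array. BAP2, a branched-chain amino acid permease, and MEP2, an ammonium permease, rose by 0.36 and 0.38, neither of which passed on the authors' scale (0.028, adjusted p = 0.89 and 0.033, adjusted p = 0.88). MEP2 was also lost without 102 h replicate 2 (0.28, adjusted p = 0.052). GAP1, the general permease, did not pass (-0.14 ± 0.16, adjusted p = 0.48). Nucleotide synthesis was divided, with 9 higher and 10 lower of 29 (5 higher and 13 lower on the authors' scale, 10 and 7 when centred). FUR1, which salvages uracil, rose (1.27 ± 0.091, adjusted p = 1.1e-06), as did URA6 and URA5 (0.79 and 0.71), while URA10, the minor isozyme of URA5, fell (-0.72 ± 0.08, adjusted p = 2.0e-05) together with ADE17 of purine synthesis (-0.67 ± 0.09, adjusted p = 8.2e-05).

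The vacuole, where yeast breaks down proteins and stores nutrients, fell in 20 of 32 tested genes and rose in 2, with a median of -0.22. The falls numbered 9 when centred on the S. cerevisiae median and 13 without 80 h replicate 2. The subunits VMA6 and VMA3 of the proton pump that acidifies the vacuole fell (-0.85 ± 0.09, adjusted p = 1.5e-05 and -0.56 ± 0.068, adjusted p = 3.9e-05). VMA3 gave 3422, 4102 and 3665 at 80 h and 2574, 2425 and 2564 at 102 h, with no overlap. PRC1, carboxypeptidase Y, changed by -0.50, but not when centred on the S. cerevisiae median (-0.17, adjusted p = 0.36), and PEP4, the protease that activates the others, did not pass (-0.11 ± 0.049, adjusted p = 0.073). PRB1, proteinase B, read -0.16 ± 0.06, adjusted p = 0.045, a call lost without 80 h replicate 1, 80 h replicate 2 or any single 102 h array (log2 changes of -0.12, adjusted p = 0.13, -0.17, adjusted p = 0.09, -0.18, adjusted p = 0.061, -0.14, adjusted p = 0.14 and -0.16, adjusted p = 0.097). The yapsins, surface proteases grouped with this list, differed. YPS1 changed by -0.79 and YPS3 rose by 1.31. Autophagy, which delivers cell contents to the vacuole, had 0 genes higher and 11 of 37 lower, with a median of -0.16. At an unadjusted p under 0.05 in the limma fit 1 was higher and 13 were lower, and 1 was higher in the fit without 80 h replicate 2. The list held 0 higher and 22 lower on the authors' scale, 0 and 11 when centred. ATG1, the kinase that starts it, gave 1001, 907 and 1092 at 80 h and 601, 581 and 637 at 102 h (log2 change -0.72 ± 0.082, adjusted p = 2.7e-05), and the groups did not overlap. ATG22, a vacuolar exporter of amino acids, changed by -1.01, the receptor of nuclear autophagy ATG39 by -0.81, and the kinase subunit VPS15 by -0.73. ATG17 read -0.76 and was lost without 80 h replicate 3 (-0.59, adjusted p = 0.051), and ATG8 did not pass (-0.16 ± 0.063, adjusted p = 0.053). The proteasome, the other route of breakdown, was near background with 8 higher and 12 lower of 49 (1 higher and 25 lower on the authors' scale, 16 and 6 when centred). PUP2, of the core particle, rose by 0.61, and BLM10, UBP6 and RPN13, of its regulators, changed by -0.56, -0.55 and -0.52. RPN11 rose by 0.46, but not on the authors' scale (0.15, adjusted p = 0.32). Folding in the endoplasmic reticulum fell in 12 of 36 genes and rose in 6 (2 higher and 21 lower on the authors' scale, 7 and 11 when centred). Without 102 h replicate 1 there were 7 falls, and without 102 h replicate 2 there were 3 rises. ERO1, the oxidase that forms disulphide bonds, had the largest change (1.01 ± 0.075, adjusted p = 1.3e-06), and FPR2 and EPS1 were lower (-0.63 and -0.48).

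Genes that build and remodel the cell wall rose in 21 of 58 and fell in 11 (14 higher and 14 lower on the authors' scale, and 7 lower without 80 h replicate 2). With RHO1 and KRE1 above, CRH1, which joins chitin to glucan, gave 642, 515 and 413 at 80 h and 1116, 1325 and 1170.5 at 102 h (log2 change 1.22 ± 0.13, adjusted p = 1.6e-05). SKN1, of β-1,6-glucan synthesis, changed by -0.73, and FLO11, an adhesin, by -0.34, a call lost when 80 h replicate 2 was left out (-0.27, adjusted p = 0.081) and likewise for 102 h replicate 1 (-0.23, adjusted p = 0.072). The cell wall integrity pathway, which runs from surface sensors through RHO1 to a kinase cascade, changed in most of its genes in both directions, with 12 higher and 13 lower of 30 (4 higher and 13 lower on the authors' scale, 13 and 12 when centred). RLM1, the transcription factor at its end, gave 197, 179 and 177 at 80 h and 369.9, 381 and 480.3 at 102 h (log2 change 1.15 ± 0.11, adjusted p = 8.7e-06), and its phosphatase PTP2 gave 552, 533 and 783 at 80 h and 1462, 1258 and 1309 at 102 h (log2 change 1.13 ± 0.13, adjusted p = 2.0e-05). Both were separate between the times, whereas SWI4, the other factor of the pathway, fell from 93.0 to 34.8 (-1.47 ± 0.26, adjusted p = 5.6e-04), as did the second phosphatase PTP3 (-0.93 ± 0.17, adjusted p = 7.0e-04) and BAG7, a GTPase-activating protein of RHO1 (-1.03).

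Daughter cell separation, the set of genes that dissolve the wall between mother and bud, rose in 9 of 17 and fell in 1 (0 without 80 h replicate 2, 102 h replicate 1 or 102 h replicate 2), with a median of 0.37. UTH1, of the SUN family of wall proteins, gave 2672, 2621 and 2375 at 80 h and 4272, 4507 and 4387 at 102 h (log2 change 0.78 ± 0.059, adjusted p = 1.4e-06). PRY3 and PIR1 rose by 0.98 and 0.64, SIC1, the inhibitor of the cyclin kinase and part of this list through its regulation, by 0.76, and the chitinase CTS1 by 0.57, the last not on the authors' scale (0.23, adjusted p = 0.22). The median signal of the list on each array was 141, 143 and 171 at 80 h and 211, 243 and 267 at 102 h, higher on each 102 h array, and on the authors' scale the list held 5 higher and 2 lower. Genes of G1, S phase and replication did not share this direction, with 13 higher and 12 lower of 68 (4 higher and 24 lower on the authors' scale, 20 and 9 when centred). The largest rise of the list was 1.40, that of WHI5 above. RAD27, the flap endonuclease of replication, gave 576, 599 and 807 at 80 h and 259, 243 and 288 at 102 h (log2 change -1.31 ± 0.12, adjusted p = 6.0e-06). FAR1, an inhibitor of the G1 kinase, changed by -0.97, the dim HCM1 by -1.26, which was lost when centred on the S. cerevisiae median (-0.69, adjusted p = 0.051), and CLN3 did not pass (0.13 ± 0.082, adjusted p = 0.2). Mitosis and cytokinesis had 8 higher and 8 lower of 56, both below the background shares (2 higher and 22 lower on the authors' scale, 10 and 8 when centred), with CLB4 higher by 0.81 and BIR1 and ALK1 lower (-1.05 and -0.75). BUB1 changed by -0.76 and was lost without 80 h replicate 2 (-0.58, adjusted p = 0.053). Of 9 tested histone genes 3 rose and 1 fell (2 without 80 h replicate 3, and 0 higher and 5 lower on the authors' scale, 3 and 1 when centred). The variant HTZ1 changed by -0.55, while HTB1 and HTB2 rose by 0.22 and 0.50, neither on the authors' scale (0.077, adjusted p = 0.51 and 0.15, adjusted p = 0.43), and HTA1 did not pass (0.0026 ± 0.071, adjusted p = 0.98).

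Enzymes of the esters and higher alcohols that give beer its aroma were near background, with 6 higher and 3 lower of 19 (3 higher and 7 lower on the authors' scale, 8 and 1 when centred, and 1 lower without 102 h replicate 3). ADH6, an NADPH-dependent alcohol dehydrogenase, gave 2351, 2545 and 2520.3 at 80 h and 4745, 4604 and 5119.6 at 102 h (log2 change 0.96 ± 0.059, adjusted p = 6.2e-07), a clear gap between the times at a high level. BAT1, the mitochondrial branched-chain aminotransferase, rose from 904 to 1479 (0.71 ± 0.074, adjusted p = 1.3e-05), and IAH1, which hydrolyses isoamyl acetate, from 256 to 421 (0.72 ± 0.085, adjusted p = 3.2e-05). ARO9, the aromatic aminotransferase, changed by -0.72. The ester synthases ATF1, ATF2 and EEB1 did not pass here (-0.24 ± 0.10, adjusted p = 0.063, 0.43 ± 0.24, adjusted p = 0.16 and -0.018 ± 0.068, adjusted p = 0.84). ATF1 passed as lower on the authors' scale (-0.57, adjusted p = 6.6e-04), and ATF2 as higher when centred (0.97, adjusted p = 0.0061). EHT1 rose by 0.50 but not on the authors' scale (0.18, adjusted p = 0.26). Among genes of multidrug and weak acid resistance, 8 rose and 7 fell of 31 (2 higher and 14 lower on the authors' scale, 10 and 5 when centred). PDR15, an ABC transporter, fell (-0.77 ± 0.05, adjusted p = 6.6e-07), as did QDR1, which exports drugs (-1.02 ± 0.13, adjusted p = 6.0e-05), and PMA2, a minor form of the proton pump (-0.58). PMA1, the main plasma membrane proton pump, read -0.27 ± 0.10, adjusted p = 0.046, a call lost under 11 of 20 alternatives, among them the omission of any single array but 80 h replicate 3 (-0.42 to -0.18).

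Markers of other cell states were dim. Genes of meiosis and sporulation had a median signal of 54.3 to 59.9 on the 6 arrays, and 13 of 51 tested genes were lower and 3 higher, against 4 higher and 13 lower on the authors' scale, 6 and 4 when centred. Without 80 h replicate 2 or 80 h replicate 3 the falls numbered 5 and 8. Their median, -0.34, lay below that of all tested here and above it on the authors' scale (0.10). CST9, of meiotic chromosome pairing, fell from 457 to 233 (-0.97 ± 0.095, adjusted p = 7.9e-06) and was the only one of the 5 falls named for this list with a signal over 100. REC102 changed by -1.01 and was lost when centred on the S. cerevisiae median (-0.55, adjusted p = 0.05). SPS4 and SPR3, for which only limits can be given (at least 1.14-fold and at least 1.20-fold lower), were lost with the floor at the background threshold, and SPR3 also on the authors' scale (-0.93, adjusted p = 0.09) and when 102 h replicate 3 was left out (-1.03, adjusted p = 0.063). Both were too dim to be tested when centred, and SPS4 also on the authors' scale. SPO20 read -0.98 and was lost on the authors' scale (-0.60, adjusted p = 0.12), when centred (-0.25, adjusted p = 0.48) and when 80 h replicate 1, 2 or 3 was left out (-0.98, adjusted p = 0.057, -0.96, adjusted p = 0.064 and -0.84, adjusted p = 0.1). Of mating pheromone genes 3 rose and 5 fell of 31 (0 higher and 9 lower on the authors' scale, 5 and 3 when centred, and 3 lower without 80 h replicate 2 or without 80 h replicate 3). STE4, the β subunit of the pheromone receptor's G protein, was lower (-1.10 ± 0.17, adjusted p = 2.6e-04), AXL1 was lower (-0.69), and PRM1 was below background on every 102 h array (at least 1.30-fold lower, adjusted p = 0.0028), a call lost with the floor at the background threshold (-0.39, adjusted p = 0.17). PRM1 was too dim to be tested when centred. FUS3, a kinase of the pheromone pathway, rose by 0.59, a call lost on the authors' scale (0.32, adjusted p = 0.19) and when 102 h replicate 2 was left out (0.47, adjusted p = 0.06).

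**Figure D5:**
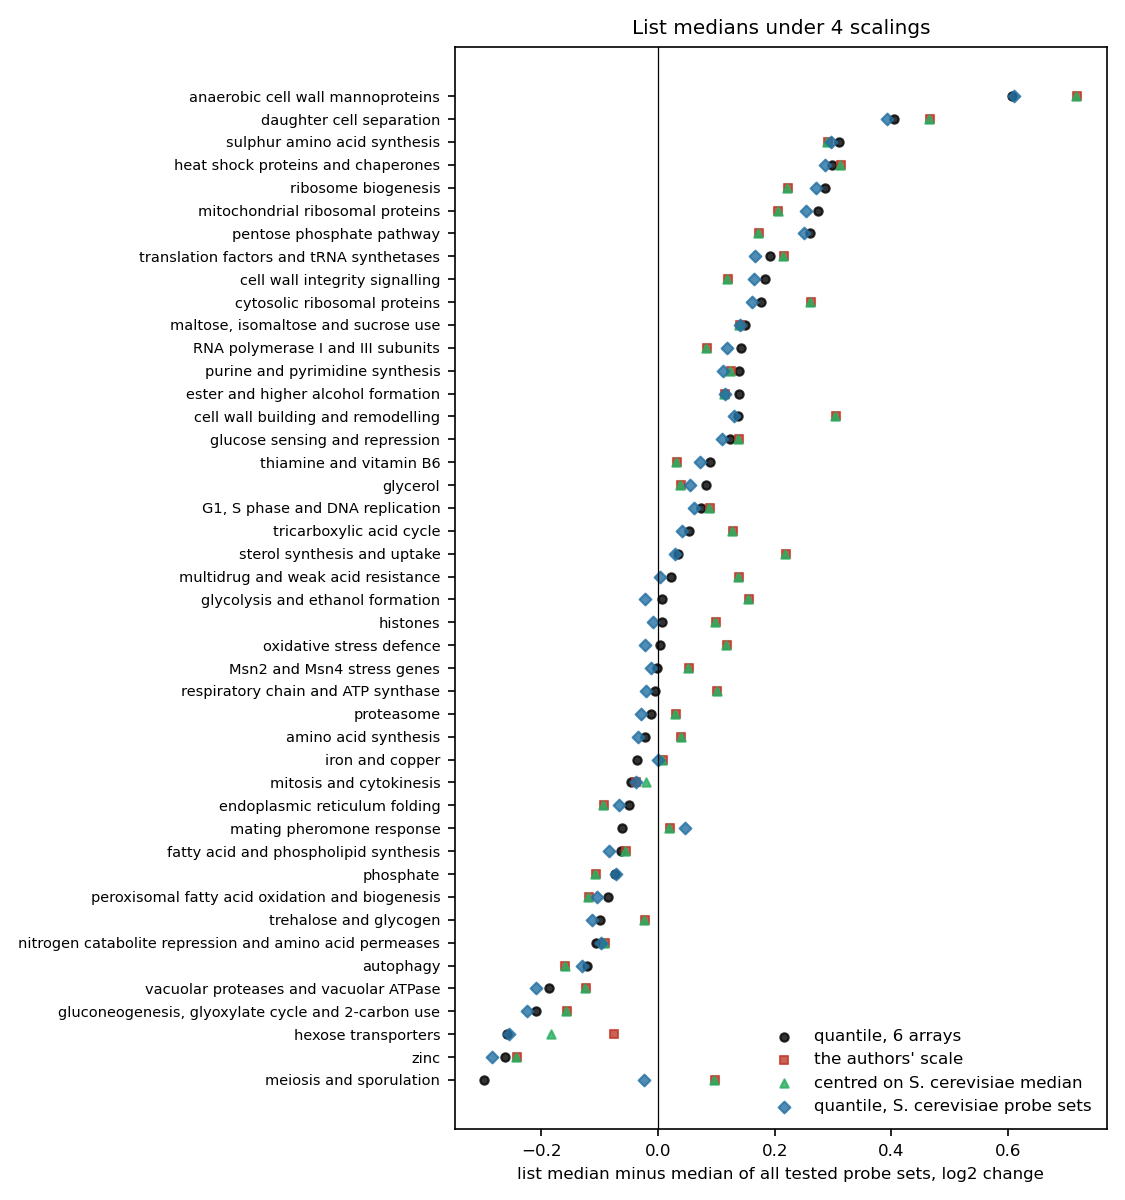
Median log2 change of each of the 44 gene lists minus the median of all tested probe sets (horizontal axis), under 4 scalings of the arrays. The authors' scale and the centred one differ by a constant per array, so their points nearly coincide by construction. Lists at the top, from mannoproteins to ribosome biogenesis, stay above 0 and those of zinc, the vacuole, 2-carbon use and autophagy stay below 0 under all 4, while meiosis and sporulation moves from below to above 0.

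The direction of a list relative to all genes held under all 4 scalings for the lists whose ranges follow. It did not hold for meiosis and sporulation, whose relative median was the lowest here (-0.30) and 0.098 on the authors' scale. Centring only multiplies each array of the authors' scale by a constant, so relative medians on these scales nearly repeat each other by construction. They are therefore not separate checks. The relative median of ribosome biogenesis lay between 0.22 and 0.29, that of chaperones between 0.29 and 0.31, and that of daughter cell separation between 0.39 and 0.47. For zinc the range was -0.28 to -0.24, for the vacuole -0.21 to -0.13, for 2-carbon metabolism -0.22 to -0.16, and for autophagy -0.16 to -0.12. Hexose transporters ranged more widely, from -0.26 to -0.075. The relative median took both signs for glycolysis, the respiratory chain, Msn2 and Msn4 genes, oxidative stress defence, amino acid synthesis, iron and copper, proteasome, histones, mating genes and sporulation, so the direction of these lists depends on the scale.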

How the data were processed

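The 14 samples were hybridised to Affymetrix Yeast Genome 2.0 arrays from oligo-dT primed, biotin-labelled RNA, per the labels' protocols. The deposited values are linear intensity values, 1 for each of 10928 probe sets and array, scaled by the authors with GCOS 5.0 per the submitters' processing notes. The scaling target and the summary method are not given in the sources used here. Gene names came from the platform annotation, updated through the RefSeq gene table. Of the probe sets, 7244 had 1 gene, 1 had several and 3470 had none besides 213 controls, and 5498 named 5449 S. cerevisiae genes.

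All probe sets of the 6 arrays were quantile normalized. The background threshold, 22.6, was the 95th percentile of the dimmer probe sets (those below the median over arrays) and the floor, 5.65, was their median. A probe set was tested with 2 or more arrays of either time above the threshold, which kept 5304 probe sets of 5266 genes, 108 marked as shared. Log2 values were fitted with limma 3.58.1 in R 4.3.3 (lmFit and eBayes with intensity trend, time as the only term), and p-values were adjusted by Benjamini-Hochberg over all tested probe sets. A gene is given by its brightest probe set, and list members without a probe set of their own or under the filter are not counted. Levels over 5 times come from a normalization of all 14 arrays. The number of arrays limits the precision. Where all arrays of 1 time were below the threshold, a lower limit against the lowest measurable signal replaces the change.

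Named genes are the 16 largest rises and falls that passed without overlap and above background on all arrays of 1 time, up to 5 members of each list with the largest passing change, and chosen genes of interest to brewing. The members, those genes and the 44 gene lists were chosen with earlier results of these data known, so counts of lists are descriptions and no list has a test. Replicate numbers are shared between the times. The deviations of same-numbered arrays from their group means correlated at 0.0096, -0.023 and 0.035, against -0.070 to 0.086 for arrays of unlike number. No pairing was seen and none was fitted, though 3 arrays a time cannot exclude one. The pipeline was tested on simulated data. No 2 arrays held identical values. Promoter sequences were not used here.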

Additional observations from a re-analysis of the deposited data

How the results depend on the processing

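The counts of 1202 higher and 1389 lower probe sets depended most on scaling and on the arrays that set the spread. The authors' scale gave 396 and 2436, and a fit to all 14 arrays gave 406 and 446. With 2-fold added to the threshold the counts were 78 and 113. An adjusted p under 0.01 left 869 and 931. Centring on the S. cerevisiae median gave 1457 and 1085, which moved the share of higher calls from 46.4% to 57.3%, against 14.0% on the authors' scale. Leaving out single arrays gave 1011 to 1176 higher and 1052 to 1346 lower. The replicate block gave 1190 and 1370, and since the numbers are not known to pair the samples this is a description only. It ended 4 of the 257 calls of named genes and added 1. The other settings stayed within 1.5 times of the counts. No tested probe set was called in opposite directions in any setting. Of the named genes, 5 changed sign with a call on one side. HHF1 read -0.0084, adjusted p = 0.95 on the authors' scale, against 0.15. Centring turned HSP12 from -0.26 to 0.10, adjusted p = 0.64, PRB1 from -0.16 to 0.013, adjusted p = 0.91 and ZRT1 from -0.14 to 0.15, adjusted p = 0.41. MPH2 read -0.033, adjusted p = 0.9 as the mean of its probe sets, against 0.49. The authors' scale ended 32 calls of named genes and centring 18. Of the named genes that did not pass here, 16 passed under some alternative. On the authors' scale ATF1, ATG8, GAP1, GLK1, HXT5, MAL31, PDC1 and PEP4 passed as lower. When centred, ATF2, CIT1, FBP1, GPD1, HXT1, QCR7, SDH2 and SUC2 passed as higher. A block for processing batch was not run, as the array files used here name no batch. For probe sets near background, signal limits what can be measured. The higher background of the 102 h arrays was not tested as a cause.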
